A study of Mus musculus with 4 samples.

Results

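p53 is a transcription factor that is held low by the ubiquitin ligase Mdm2 and freed by DNA damage, oncogene activity and other stress. Once stable, it switches on genes that stop the cell cycle, repair DNA, trigger apoptosis or feed back on p53 itself. In blood cells this program is known as a barrier to leukemia. The gene set described here holds 34 genes, Trp53 and genes widely described as p53 targets or partners, out of 23284 gene rows. All 34 were found by symbol, and 33 had enough counts to be tested among 13215 genes. The untested member was Pltp, a phospholipid transfer protein gene, with 6, 11, 4 and 3 counts in control 1, control 2 and Msi2 -/- mice 1 and 2.

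RNA came from sorted leukemic cells of C57BL/6 mice that carried much c-Kit, the stem cell factor receptor, on their surface. One group of 2 mice was Msi2 -/-, lacking the RNA-binding protein Musashi 2, and the other group of 2 mice was Msi2 flox/flox (control), with both alleles flanked by loxP sites. The series title names the disease as MLL leukemia. The driver of the leukemia, any Cre line, the exons removed and the age and sex of the animals are not stated in the labels used here. Libraries held between 72273679 and 87564774 gene counts, and 3 counts correspond to at most 0.0412 CPM (gene counts relative to library size, scaled by edgeR's TMM factors). Msi2 itself stood at 34.6 and 48.9 CPM in the control pair, against 0.0915 and 0.221 CPM in the knock-out pair. The groups also differed in Xist, the RNA of the inactive X chromosome, which was at 1455 and 654 CPM in control mice but at 0.469 and 0.624 CPM in Msi2 -/- mice, so genotype and this sex-linked difference cannot be told apart. Summed over Uty, Kdm5d, Eif2s3y and Ddx3y, transcripts of the Y chromosome came to 41.1 and 184 CPM in control 1 and 2 and to 224 and 242 CPM in Msi2 -/- mice 1 and 2. Both controls thus held Xist together with Y transcripts, in unlike proportions, and the labels give no reason. All 10 markers of the labelled progenitor were tested, and their sum, most of it Mpo, Elane and Prtn3, lay between 8968 and 12371 CPM. Cd34 stood at 20.3 and 43.5 CPM in control 1 and 2 and at 79.8 and 7.02 CPM in Msi2 -/- mice 1 and 2. DESeq2 called 0 of the 10 markers higher and 2 lower, Mpo and Myb, beside 3.12% and 2.73% of its 13281 genes. Mpo, myeloperoxidase, had 4001 and 4953 CPM in controls and 2117 and 2159 CPM in Msi2 -/- mice. Its log2 fold change was -1.07 (SE 0.127, adjusted p 0.265 by edgeR and 8.36e-12 by DESeq2). Myb had a log2 fold change of -0.39 (SE 0.109, adjusted p 0.335 by edgeR and 0.0415 by DESeq2). Of the 11 monocyte and macrophage markers, 7 were tested and DESeq2 called Csf1r higher (log2 fold change 1.19, SE 0.293) and Irf8 lower (log2 fold change -2.15, SE 0.442). Their sum was 1467 and 1440 CPM in control 1 and 2 and 1029 and 2119 CPM in Msi2 -/- mice 1 and 2, and Ccr2 was at 19.98 and 312 CPM in the latter. T and NK markers summed to 132 and 190 CPM in controls and 29.8 and 158 CPM in Msi2 -/- mice, most of it Nkg7, with Cd3e, Cd3g, Cd8a and Cd2 at 0 counts. B cell markers summed to between 19.6 and 28.3 CPM, most of it Cd79b, which DESeq2 called lower (log2 fold change -0.43, SE 0.118), with Ms4a1, Pax5 and Ebf1 at 0 counts. The 11 late neutrophil markers summed to 1081 and 741 CPM in control 1 and 2 and to 1438 and 2309 CPM in Msi2 -/- mice 1 and 2. DESeq2 called 4 of the 10 tested markers higher and 1 lower, beside 3.12% and 2.73% of its genes. Retnlg had at most 0.110 CPM. By edgeR's quasi-likelihood test no marker of these lists passed an adjusted p of 0.05. Its adjusted p was 0.325 for Csf1r, 0.293 for Irf8 and 0.335 for Cd79b. The part of these markers' cells, or of differentiation, in the results on p53 target genes was not tested. The library names open with a number that is the same within a group and differs between groups, and its meaning is not stated; if it marks a batch, batch and genotype cannot be told apart. In such bulk samples, fewer cells of a type and less RNA per cell cannot be told apart.

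p53 binds a pair of 10-base half-sites, and the promoters below show how closely some members carry that consensus. RefSeq promoter windows of the mouse build GRCm38.p6, from 250 bases before to 50 bases after a start, were given for 26 of the 34 members. Not in that table were Zmat3, Trp53inp1, Xpc, Perp, Ddb2, Rrm2b, Pmaip1 and Tnfrsf10b. The p53 half-site consensus reads the same on both strands. An exact half-site occurred in a window of 10 of the 26 genes (38.5%) and in 9.55% of all 27025 genes of the table. Adjacent half-sites with no spacer and at most 3 mismatches in 20 bases occurred for 9 of 26 members (34.6%) and for 7.2% of all genes. These 9 were Aen, Bax, Bbc3, Ccng1, Gadd45a, Mdm4, Polk, Sesn1 and Trp53. Exact and adjacent matches overlap each other by construction, and members were chosen as p53 targets, so the shares are a description. The stretches shown are from 4 members that behaved differently in these mice, with the 20 matched bases in capitals.
Ccng1: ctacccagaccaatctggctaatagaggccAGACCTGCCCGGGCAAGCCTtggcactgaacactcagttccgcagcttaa
Bax: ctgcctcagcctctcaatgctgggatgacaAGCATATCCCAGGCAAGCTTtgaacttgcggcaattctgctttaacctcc
Bbc3: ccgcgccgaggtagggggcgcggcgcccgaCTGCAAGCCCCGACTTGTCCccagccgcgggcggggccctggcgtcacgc
Sesn1: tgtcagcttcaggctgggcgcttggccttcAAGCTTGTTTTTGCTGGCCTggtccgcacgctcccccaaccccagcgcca
The Ccng1 stretch is chr11:40755432-40755511 on the minus strand, and its match, which begins 195 bases before the start, differed from the consensus at 1 position. The stretch of Bax is chr7:45467060-45467139 (minus strand), that of Bbc3 is chr7:16309456-16309535 (plus strand) and that of Sesn1 is chr10:41887236-41887315 (plus strand), each with 3 mismatches. Phlda3, Dcxr and Ei24 had no adjacent match within 3 mismatches in their windows. A match is a run of letters, not evidence that p53 was bound there.

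The comparison asked how p53 target transcripts stand after loss of Msi2. Where 2 pairs of values are set against each other, the first pair is control 1 and 2 and the second is Msi2 -/- mice 1 and 2. Phlda3, Trp53inp1, Zmat3 and Ccng1 stood between 1.65-fold and 2.08-fold higher in the Msi2 -/- mice, and Mdm2, Bax, Ei24, Xpc and Dcxr between 1.24-fold and 1.36-fold higher, with standard errors of 0.0625 (Ei24) to 0.219 (Trp53inp1) on the log2 scale and 2 mice per group. None of these passed edgeR's adjusted test. Trp53 transcripts were not higher, and Bbc3, Pmaip1, Fas and Tnfrsf10b overlapped the controls. Sesn1 and Gadd45a lay lower. The log2 fold change (Msi2 -/- minus control) of 23 of the 33 tested members lay above 0 and that of 10 below, against 49.7% of all tested genes above 0 and 50.3% below. The median was 0.20, against -0.0020 for all tested genes, and over the members it was 0.21 in Msi2 -/- mouse 1 and 0.23 in mouse 2 against the mean of the shared controls.

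No member passed the main test. By edgeR's quasi-likelihood test with Benjamini-Hochberg adjustment over all genes, 0 members were higher and 0 lower past 0.05, where the shares of all genes were 0% and 0.00757%. The smallest adjusted p of a member was 0.259. Msi2 itself and Xist, at log2 fold changes of -8.07 and -10.9, did not pass this test either (adjusted p 0.122 for each). Before adjustment (p under 0.05), 9 members were higher and 2 lower (Sesn1 and Perp), beside 6.69% and 6.17% of all tested genes. Perp passed the count filter through the controls alone, and with a filter of 1 CPM in 2 libraries 1 member was lower (6.04% of all genes). At an adjusted p under 0.05, 7 members were higher and 1 lower by DESeq2, beside 3.12% and 2.73% of its 13281 genes. The 7 were Zmat3, Ccng1, Phlda3, Trp53inp1, Dcxr, Ei24 and Xpc, and the lower one was Sesn1. On simulated counts DESeq2's adjusted p at this threshold let through more false calls than its nominal share, and more than the quasi-likelihood test did. With edgeR's likelihood ratio test 4 were higher and 0 lower (0.908% and 1.45% of all genes), and limma-voom called 0 each way (0% of all genes in either direction). With single libraries left out, DESeq2 kept Zmat3, Ccng1 and Phlda3 in all 4 cases, and it called Dcxr, Ei24 and Xpc in none of them. Its count of higher members was 3 without control 2 (0.779% of all genes), 4 without Msi2 -/- mouse 1 (2.26%) and 4 without mouse 2 (2.36%). Without control 1 it was 6 (1.82% of all genes), of which 4 were shared with the full set. The Msi2 -/- libraries both lay above both controls for 15 members and both below for 4, where 23.7% and 24.6% of all tested genes did so.

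**Figure D1:**
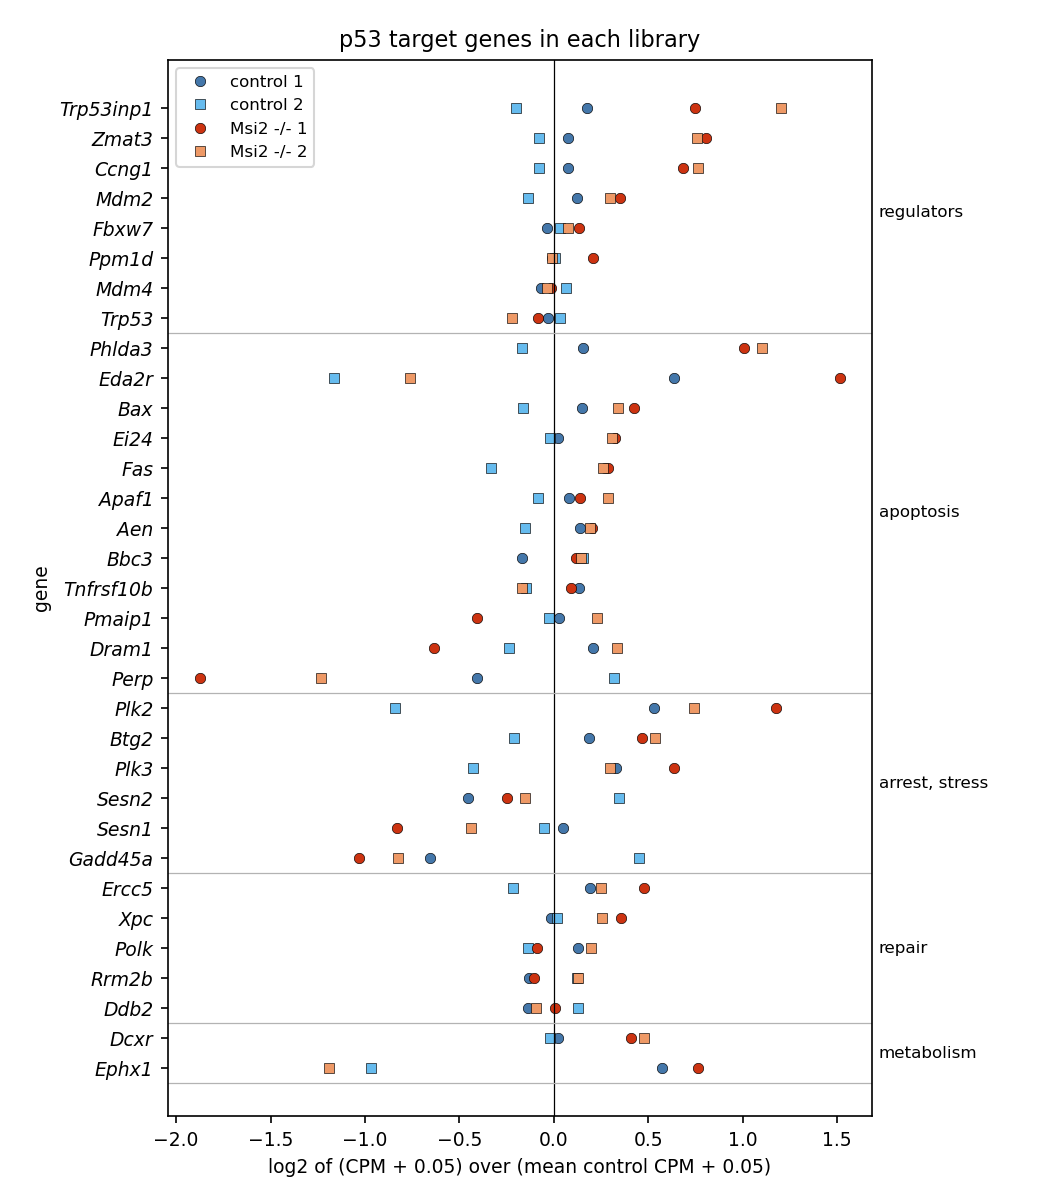
Each point is 1 library of 1 tested gene, on a log2 scale of CPM plus 0.05 over the mean of the controls plus 0.05 (x axis), with genes grouped by role (y axis). Phlda3, Zmat3, Ccng1 and Trp53inp1 show both Msi2 -/- libraries well to the right of both controls, whereas Eda2r, Ephx1, Pmaip1 and Dram1 show Msi2 -/- libraries far apart from each other.

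Among p53 and its regulators, Zmat3, Ccng1, Trp53inp1 and Mdm2 stood higher in both Msi2 -/- mice, while Trp53 stood slightly lower. Trp53 reached 192 and 200 CPM without, and 185 and 169 CPM with, deletion of Msi2. Both Msi2 -/- values were below both controls, by a small margin (log2 fold change -0.15, SE 0.0789, adjusted p 0.482 by edgeR). Mdm2, the ligase that marks p53 for degradation and is itself a p53 target, measured 113 and 94.8 CPM in control 1 and 2, and 133 and 128 CPM in Msi2 -/- mice 1 and 2. All its Msi2 -/- values lay above the controls, yet the difference did not pass either adjusted test (log2 fold change 0.32, SE 0.109, adjusted p 0.367 by edgeR and 0.143 by DESeq2). Without control 2 the log2 fold change of Mdm2 was 0.20, and its unadjusted p was no longer under 0.05 without control 2, Msi2 -/- mouse 1 or Msi2 -/- mouse 2. Mdm4, the partner of Mdm2 that blocks the activation domain of p53, had 111 and 122 against 115 and 113 CPM, so the Msi2 -/- values sat inside the control range (log2 fold change -0.02, SE 0.0763). Ppm1d, the phosphatase Wip1 that switches p53 signalling off, stood at 33.6 and 33.9 CPM in the control pair, against 39.0 and 33.4 CPM in the knock-out pair, and the groups overlapped. Fbxw7, a substrate receptor of an SCF ubiquitin ligase, had between 13.9 and 14.6 CPM in the controls and between 14.96 and 15.6 CPM in the knock-out mice (log2 fold change 0.10, SE 0.132).

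Zmat3, Ccng1 and Trp53inp1 of the same group carried the largest differences. Zmat3, a zinc finger RNA-binding protein that acts in p53 tumor suppression, reached 88.8 and 79.7 CPM without, and 147 and 143 CPM with, deletion of Msi2. The gap between the groups was several times the gap within either (log2 fold change 0.78, SE 0.0826, adjusted p 0.259 by edgeR and 6.75e-11 by DESeq2). With any 1 library left out its log2 fold change stayed between 0.71 and 0.86. Zmat3 overlaps the low transcript 4930429B21Rik, which had between 43 and 73 counts where Zmat3 had at least 5807. Ccng1, for cyclin G1, which recruits a phosphatase to Mdm2, measured 289 and 260 CPM in control 1 and 2, and 441 and 467 CPM in Msi2 -/- mice 1 and 2. The groups were again well apart (log2 fold change 0.72, SE 0.085, adjusted p 0.265 by edgeR and 3.59e-10 by DESeq2). Trp53inp1, a stress protein that promotes p53 phosphorylation and autophagy, had 30.1 and 23.3 CPM against 44.9 and 61.5 CPM. Its Msi2 -/- mice differed more from each other, but both exceeded the controls (log2 fold change 0.99, SE 0.219, adjusted p 0.308 by edgeR and 0.00158 by DESeq2). In all, 6 of the 8 regulators lay above 0 with a median log2 fold change of 0.21. Before adjustment (p under 0.05) 4 were higher, beside 6.69% of all tested genes.

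**Figure D2:**
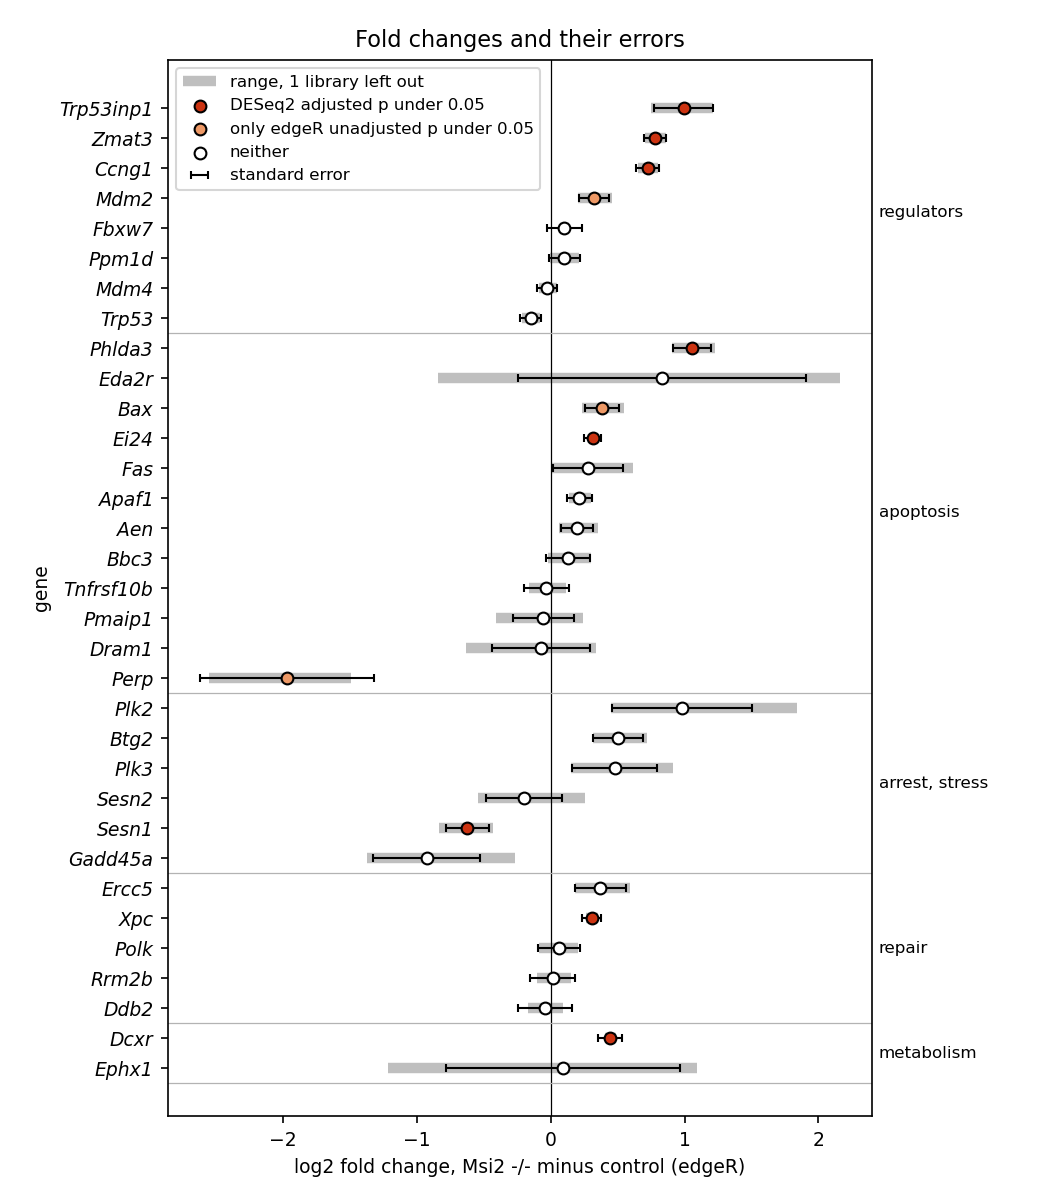
Points give edgeR's log2 fold change for each tested gene (x axis; genes by role on the y axis), black bars its standard error and grey bars the range with 1 library left out. Filled points had a DESeq2 adjusted p or an edgeR unadjusted p under 0.05, and none passed edgeR's adjusted test. By edgeR's unadjusted p 6.69% of all tested genes were higher and 6.17% lower. Filled points are concentrated on the right, from Xpc at 0.31 to Phlda3 at 1.06, and Perp and Sesn1 are the filled points on the left. Perp passed the count filter through the controls alone.

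Among the genes of apoptosis, DESeq2 called Phlda3 and Ei24 higher. Phlda3, a p53-induced inhibitor of Akt signalling, stood at 30.7 and 24.5 CPM in the control pair, against 55.5 and 59.3 CPM in the knock-out pair. This was the highest log2 fold change of the tested members (1.06, SE 0.142, adjusted p 0.271 by edgeR and 7.3e-08 by DESeq2), and both Msi2 -/- values were far above the controls. Bax, which permeabilizes the outer mitochondrial membrane, had 209 and 168 CPM against 253 and 239 CPM. The groups did not overlap, but their nearest values were closer than the controls were to each other (log2 fold change 0.38, SE 0.126, adjusted p 0.362 by edgeR and 0.101 by DESeq2). Without control 2 the log2 fold change of Bax was 0.24, and its unadjusted p was no longer under 0.05 without control 2 or without Msi2 -/- mouse 1. Ei24, a p53-induced protein of the endoplasmic reticulum with a part in autophagy, reached 107 and 104 CPM without, and 132 and 130 CPM with, deletion of Msi2. This difference was small and tight (log2 fold change 0.31, SE 0.0625, adjusted p 0.293 by edgeR and 0.00205 by DESeq2). DESeq2 no longer called Ei24 with any 1 library left out, where edgeR's log2 fold change lay between 0.30 and 0.34.

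The BH3-only genes, whose products set off the mitochondrial pathway, overlapped between the groups. Bbc3, which encodes Puma and carries the match printed above, measured 14.9 and 18.6 CPM in control 1 and 2, and 18.1 and 18.5 CPM in Msi2 -/- mice 1 and 2, inside the control range (log2 fold change 0.13, SE 0.163, adjusted p 0.762 by edgeR). Pmaip1, which encodes Noxa, stood at 89.1 and 86.0 CPM in the control pair, against 66.02 and 103 CPM in the knock-out pair, which fell on opposite sides of the controls (log2 fold change -0.05, SE 0.226). Among receptors of the death pathway, Fas had 9.67 and 6.37 CPM against 9.81 and 9.62 CPM. One Msi2 -/- value lay just above the higher control and the other just below it (log2 fold change 0.28, SE 0.262). Tnfrsf10b, the mouse TRAIL receptor, ranged from 20.8 to 25.2 CPM in the controls and from 20.4 to 24.5 CPM in the Msi2 -/- mice. Eda2r, an X-linked receptor of the TNF receptor family, was low and uneven, at 0.937 and 0.233 CPM in control mice and 1.76 and 0.325 CPM in Msi2 -/- mice.

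Downstream and accessory death genes lay near the controls or were unequal between mice. Apaf1, the scaffold of the apoptosome, had 158 and 141 CPM against 165 and 183 CPM (log2 fold change 0.22, SE 0.0958, adjusted p 0.428 by edgeR). Aen, a nuclease that acts in p53-driven apoptosis, had 75.3 and 61.6 CPM against 78.8 and 78.2 CPM (log2 fold change 0.20, SE 0.116). Without control 2 these values were 0.14 for Apaf1 and 0.062 for Aen. For both genes the Msi2 -/- values exceeded the controls, but the nearest values of the groups were closer than the controls were to each other. Dram1, a lysosomal protein that links p53 to autophagy, reached 94.0 and 69.0 CPM without, and 52.5 and 103 CPM with, deletion of Msi2. Dram1 overlaps Ccdc53, which had between 2555 and 3008 counts where Dram1 had between 4585 and 7889. Perp, a membrane protein of cell junctions and a p53 effector, was close to the floor, with 20 and 32 counts in the controls and 5 and 9 in the knock-out mice (log2 fold change -1.97, SE 0.651, adjusted p 0.362 by edgeR and 0.408 by DESeq2). It passed the count filter through the controls alone, so its difference is partly set by the filter. Its unadjusted p was no longer under 0.05 without control 1, control 2 or Msi2 -/- mouse 1. Of the 12 genes of this role, 8 lay above 0. Before adjustment (p under 0.05) 3 were higher and 1 lower, beside 6.69% and 6.17% of all tested genes. DESeq2 called 2 higher, beside 3.12% of its genes.

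Growth arrest and stress genes went both ways. Sesn1, a stress-induced inhibitor of mTORC1, measured 59.4 and 55.4 CPM in control 1 and 2, and 32.2 and 42.4 CPM in Msi2 -/- mice 1 and 2. It was the member that DESeq2 called lower, beside 2.73% of its genes (log2 fold change -0.62, SE 0.159, adjusted p 0.333 by edgeR and 0.0229 by DESeq2). DESeq2 no longer called it without control 1, without control 2 or without Msi2 -/- mouse 1, and edgeR's log2 fold change lay between -0.83 and -0.43 with any 1 library left out. Gadd45a, a growth arrest and DNA damage gene, stood at 17.2 and 37.0 CPM in the control pair, against 13.2 and 15.3 CPM in the knock-out pair (log2 fold change -0.93, SE 0.4, adjusted p 0.422 by edgeR). Gadd45a overlaps the transcript E230016M11Rik, which had 36 and 67 against 31 and 34 counts. Control 2 stood far above control 1 for Gadd45a, and without it the log2 fold change was -0.27. Sesn2, a sestrin that is also induced by the stress factor ATF4, reached 36.9 and 64.2 CPM without, and 42.6 and 45.5 CPM with, deletion of Msi2, where again control 2 alone was high. Without control 2 its log2 fold change was 0.26 instead of -0.20.

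The other genes of this role leaned higher with wide errors. Btg2, an antiproliferative factor, had 14.8 and 11.2 CPM against 17.9 and 18.8 CPM (log2 fold change 0.50, SE 0.187, adjusted p 0.391 by edgeR), and without control 2 its value was 0.32. Plk2, a polo-like kinase induced by stress, had 6.36 and 2.43 CPM against 9.98 and 7.38 CPM (log2 fold change 0.98, SE 0.525, adjusted p 0.486 by edgeR), and its value was 0.45 without control 2 and 1.84 without control 1. Plk3, a related kinase, had 12.6 and 7.44 CPM against 15.6 and 12.3 CPM, and the groups overlapped. In each of the 3 genes control 2 was the lowest library. Of 6 genes in all, 3 lay above 0 and 3 below.

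Of the 5 DNA repair genes, Xpc was the one that DESeq2's adjusted test called higher, beside 3.12% of its genes. Xpc, which recognises helix-distorting lesions in nucleotide excision repair, measured 163 and 167 CPM in control 1 and 2, and 211 and 197 CPM in Msi2 -/- mice 1 and 2. The groups were clearly apart (log2 fold change 0.31, SE 0.0694, adjusted p 0.308 by edgeR and 0.00871 by DESeq2). DESeq2 no longer called Xpc with any 1 library left out, where edgeR's log2 fold change lay between 0.27 and 0.36. Ddb2, the partner lesion sensor, had between 6.66 and 7.999 CPM in the controls and between 6.86 and 7.36 CPM in the Msi2 -/- mice. Ddb2 overlaps Acp2, which had between 3775 and 4084 counts where Ddb2 had between 528 and 643. Ercc5, the nuclease that cuts 3′ of a lesion, had 23.4 and 17.6 CPM against 28.6 and 24.4 CPM (log2 fold change 0.37, SE 0.191, adjusted p 0.475 by edgeR), and 0.18 without control 2. Polk, a translesion DNA polymerase, gave a log2 fold change of 0.06 (SE 0.157), and Rrm2b, the p53-inducible subunit of ribonucleotide reductase, gave 0.02 (SE 0.17). Both of these overlapped between groups.

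Of the metabolic genes, Dcxr, a dicarbonyl and xylulose reductase, stood at 33.4 and 32.4 CPM in the control pair, against 43.6 and 45.7 CPM in the knock-out pair. Its groups were apart by far more than the mice within a group (log2 fold change 0.44, SE 0.0905, adjusted p 0.293 by edgeR and 0.00167 by DESeq2). DESeq2 no longer called Dcxr with any 1 library left out, where edgeR's log2 fold change lay between 0.41 and 0.49. Ephx1, microsomal epoxide hydrolase, had 4.01 and 1.34 CPM against 4.58 and 1.14 CPM, so the spread within each group exceeded any difference between them.

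**Figure D3:**
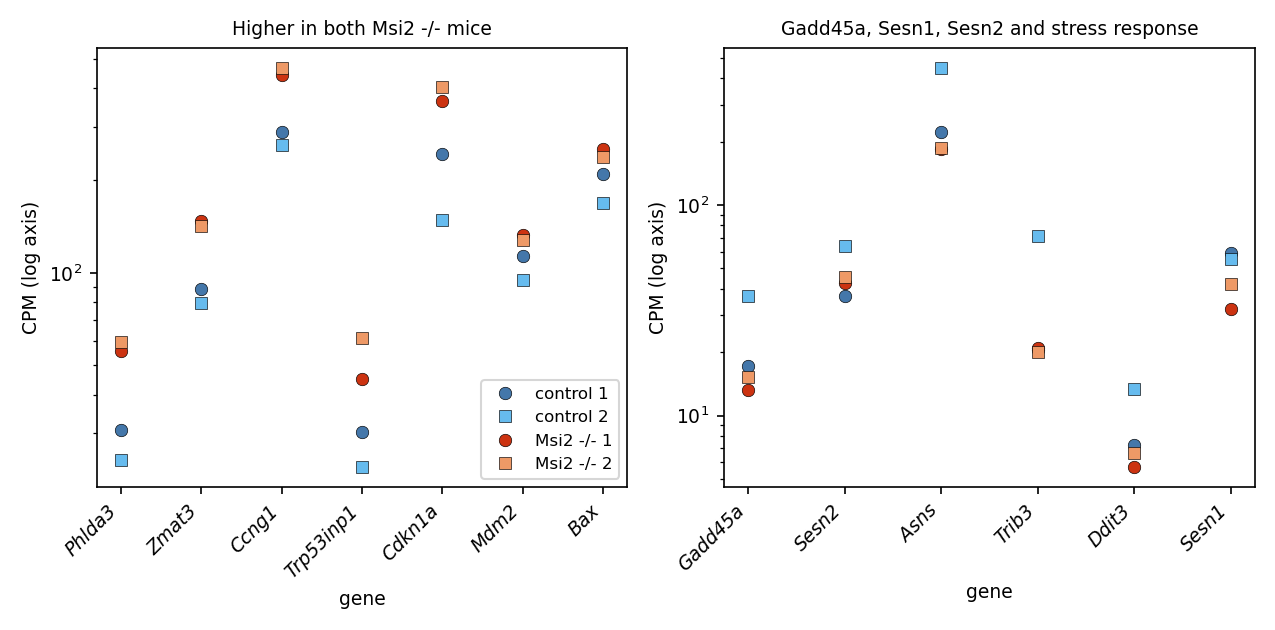
CPM on a log axis for named genes (x axis), with 1 point for each of the 4 libraries. The genes on the left were picked as genes for which both Msi2 -/- libraries lie above both controls. Of the 33 tested members 15 did so, beside 23.7% of all tested genes. On the right control 2 stands above the other libraries for Gadd45a, Sesn2, Asns, Trib3 and Ddit3, while both controls are high for Sesn1.

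Other p53 targets lay in the same direction as the members. Of 30 tested genes of this list, 26 were above 0 and 4 below, with a median log2 fold change of 0.22. By edgeR's adjusted p 0 passed. Before adjustment (p under 0.05) 7 were higher and 0 lower, beside 6.69% and 6.17% of all tested genes. DESeq2 had 5 higher and 0 lower calls, beside 3.12% and 2.73% of its genes. The cell cycle inhibitor p21, Cdkn1a, reached 244 and 149 CPM without, and 364 and 403 CPM with, deletion of Msi2 (log2 fold change 0.97, SE 0.257, adjusted p 0.333 by edgeR and 0.00408 by DESeq2). Rps27l, a ribosomal protein paralog induced by p53, had 208 and 195 CPM against 253 and 242 CPM (log2 fold change 0.29, SE 0.0726, adjusted p 0.0177 by DESeq2). Epha2, an ephrin receptor gene, had the smallest p of this list, with 2.96 and 1.47 CPM against 15.1 and 12.9 CPM (log2 fold change 2.66, SE 0.409, adjusted p 0.271 by edgeR and 3.21e-08 by DESeq2). For these genes, which had the smallest p of the list, each Msi2 -/- library exceeded each control. Of all 30 tested genes of the list, 15 lay above both controls in this way and 2 below. The shares of all tested genes were 23.7% and 24.6%.

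Genes that activate or modify p53 showed no shared direction. Of 30 tested, 18 lay above 0 and 12 below, with a median of 0.03. Before adjustment (p under 0.05) 1 was higher and 3 lower, beside 6.69% and 6.17% of all tested genes. The higher one was Cdkn2a, whose p19 product restrains Mdm2, at 17.6 and 9.95 CPM in control mice and 32.7 and 33.7 CPM in Msi2 -/- mice (log2 fold change 1.27, SE 0.301, adjusted p 0.315 by edgeR and 0.00216 by DESeq2). Trp53bp1, a DNA break protein that binds p53, had 101 and 102 CPM against 89.4 and 87.9 CPM (log2 fold change -0.19, SE 0.061). Chek1, a checkpoint kinase, had 40.3 and 49.2 CPM against 35.4 and 29.7 CPM (log2 fold change -0.46, SE 0.156). The remaining lower one was Atr, the kinase upstream of Chek1 (log2 fold change -0.31, SE 0.107). DESeq2 called none of these 3.

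Active p53 is known to lower cell cycle genes through p21 and the DREAM complex. Of 15 tested genes 14 lay above 0 and 1 below, with a median log2 fold change of 0.21. Without control 2 the split was 9 above and 6 below, with a median of 0.016. Kif23, a mitotic kinesin, measured 52.6 and 40.6 CPM in control 1 and 2, and 71.5 and 71.1 CPM in Msi2 -/- mouse 1 and mouse 2 (log2 fold change 0.61, SE 0.145, adjusted p 0.0108 by DESeq2). Ccna2, for cyclin A2, had a log2 fold change of 0.34 (SE 0.0867, adjusted p 0.0243 by DESeq2). Bub1b, a spindle checkpoint kinase gene, was the single gene below 0, at -0.31 (SE 0.0858, adjusted p 0.0598 by DESeq2). edgeR's quasi-likelihood test passed 0 of the 15 genes at an adjusted p under 0.05. Before adjustment (p under 0.05) 5 were higher and 1 lower, beside 6.69% and 6.17% of all tested genes. DESeq2 called 2 higher, beside 3.12% of its genes.

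Some members also respond to stress unrelated to p53, so stress genes were set beside them. Of 12 tested genes of the integrated stress response, the ATF4 program of amino acid shortage and protein misfolding, 10 lay below 0, with a median log2 fold change of -0.44. Without control 2 the split was 5 above and 7 below, with a median of -0.054. Sesn2 is in this list as well as among the members. Asns, asparagine synthetase, stood at 221 and 449 CPM in the control pair, against 184 and 186 CPM in the knock-out pair. Trib3, a pseudokinase induced by ATF4, reached 20.5 and 71.6 CPM without, and 20.8 and 20.1 CPM with, deletion of Msi2. Control 2 was the highest library for Asns and Trib3, as it was for Gadd45a and Sesn2, and the part of this stress program in their values was not tested. Atf4 itself had 541 and 706 CPM against 499 and 502 CPM (log2 fold change -0.32, SE 0.145). Cebpb, a transcription factor gene of the same list, was the one gene higher before adjustment, beside 6.69% of all tested genes. Its log2 fold change was 0.27 (SE 0.0737, adjusted p 0.335 by edgeR and 0.0401 by DESeq2).

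Immediate early genes, which can rise during cell handling, showed no common shift in the full set of libraries. Of 18 tested, 8 lay above 0 and 10 below, with a median of -0.02. Without control 1 the split was 13 above and 5 below, with a median of 0.19. DESeq2 called 3 higher, namely Klf6 (log2 fold change 1.12, SE 0.202), Klf2 (log2 fold change 1.59, SE 0.328) and Jund (log2 fold change 0.75, SE 0.166), all transcription factor genes. These 3 calls stood beside 3.12% of the genes of DESeq2. By edgeR's adjusted p 0 passed. Before adjustment (p under 0.05) 3 were higher and 1 lower, beside 6.69% and 6.17% of all tested genes.

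**Figure D4:**
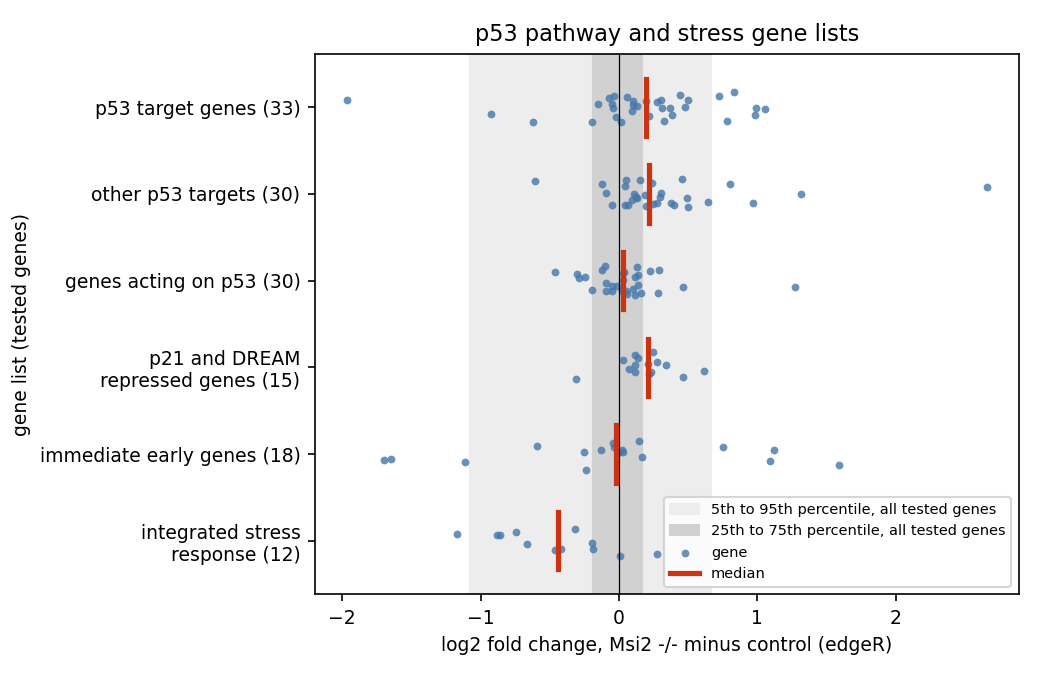
Each point is 1 tested gene at its log2 fold change (x axis) in 6 lists (y axis, with the number of tested genes), red lines are list medians and grey bands give percentiles of all tested genes. Medians lie at 0.20, 0.22 and 0.21 for the p53 target genes, the other p53 targets and the genes repressed through p21 and DREAM, and at -0.44 for the integrated stress response.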

How the data were processed

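Per the submitters' processing notes, reads were handled with Trimmomatic, STAR, HTSeq and DESeq on the mouse build mm9; versions, annotation, strand setting and overlap mode are not stated there or in the labels. The authors deposited whole-number read counts for each gene symbol, not normalized, with 1 library per mouse. Rows that name no gene held 19.1% to 20.1% of the counts and were left out. The members and lists were chosen with earlier results of these data known.

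In R 4.3.3, edgeR 4.0.16 tested 13215 genes kept by filterByExpr (minimum count 10, minimum total 15) with TMM scaling and the quasi-likelihood test, group as the only term, two-sided, with Benjamini-Hochberg adjustment and a threshold of 0.05. Standard errors come from the F statistic. DESeq2 1.42.0 (Wald test, no shrinkage) and voom of limma 3.58.1 were alternatives. The steps were tested on simulated data. At this threshold both the quasi-likelihood test and DESeq2 let through a larger share of false calls than the nominal one, DESeq2 more so. DESeq2 calls are therefore less certain than their adjusted p. The quasi-likelihood test missed most of the simulated 2-fold changes, and more of them than DESeq2 did. In the measured libraries it also did not pass Msi2 (log2 fold change -8.07, adjusted p 0.122), so not only small changes were missed. The count of 0 members by the quasi-likelihood test therefore does not show that no member differed. CPM uses TMM-scaled sizes. Lists are described by counts and medians. Values per library are given for members with an unadjusted edgeR p or an adjusted DESeq2 p under 0.05 and for Trp53, Mdm2, Mdm4, Ppm1d, Ccng1, Zmat3, Bax, Bbc3, Pmaip1 and Fas whatever their result; values of further members and of Asns and Trib3 were added after the data were examined. Other lists give the genes of smallest p, plus Cdkn1a and Cdkn2a. In the RefSeq gene table of GRCm38.p6, 7 members (Zmat3, Apaf1, Gadd45a, Plk3, Ddb2, Dram1 and Pltp) overlap another gene of the files, so reads there may be shared or dropped. The design text gives separate mice; with 2 per group, an exact permutation test could not go below a p of 0.333.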

Additional observations from a re-analysis of the deposited data

How the results depend on the processing

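The main limits are 2 mice per group and the few residual degrees of freedom. At this threshold DESeq2 called 7 members higher and 1 lower and edgeR's likelihood ratio test called 4 higher, where the quasi-likelihood test called 0; this count stayed at 0 under RLE and upper-quartile scaling, both other filters, limma-voom and with any 1 library left out. The count of members lower at an unadjusted p under 0.05, 2 in the main fit, was 1 with a filter of 1 CPM in 2 libraries (6.04% of all genes) and between 0 and 4 with 1 library left out (2.72% to 8.9%; the 4 fell where 8.9% of all genes were lower), while the count higher, 9, lay between 7 and 12 (2.47% to 7.69%). The median log2 fold change of the members was 0.18 with upper-quartile scaling and between 0.15 and 0.30 with 1 library left out. DESeq2 with 1 library left out, added after the data were seen, called between 3 and 6 members higher (0.779% to 2.36% of all genes) and between 0 and 1 lower (0.71% to 4.71%). Where a library is left out, the lone mouse is assumed to vary like the other group.

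With the replicate number as a block, edgeR gave 10 members higher and 2 members lower with unadjusted p under 0.05 (5.75% and 5.49% of all genes), 0 past the adjusted threshold and a median of 0.20. Deviations of same-numbered libraries had a correlation of 0.04 across genes, and the crossed pairs had -0.04. With 2 libraries per group these deviations are mirror images, so whether same-numbered libraries share more than a number cannot be told from this value. Of 33 tested members, 21 kept their direction in all 12 alternatives in which they could be tested. Rrm2b was at -0.0078 with upper-quartile scaling, and Ephx1 at -0.0070 by limma-voom and -0.016 with the block. With 1 library left out, the sign changed for Mdm4 (-0.088 to 0.046), Bbc3 (-0.021 to 0.30), Pmaip1 (-0.41 to 0.24), Sesn2 (-0.54 to 0.26), Eda2r (-0.84 to 2.16), Tnfrsf10b (-0.16 to 0.12), Polk (-0.087 to 0.20), Ddb2 (-0.17 to 0.10), Rrm2b (-0.11 to 0.15), Dram1 (-0.63 to 0.34), Ppm1d (-0.0036 to 0.21) and Ephx1 (-1.22 to 1.09); the cause was not tested.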

Other observations

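The controls were less alike than the Msi2 -/- mice for these genes. The median absolute log2 gap between the controls was 0.28 over the 33 tested members and 0.15 over all tested genes, and the gap between the Msi2 -/- mice was 0.14 and 0.17. Control 1 was above control 2 for 22 of 33 members (66.7%), against 51.3% of all tested genes. Control 2 was the lower control for Phlda3, Zmat3, Ccng1, Trp53inp1, Mdm2, Bax and Cdkn1a, and the higher one for Gadd45a, Sesn2, Asns and Trib3. Control 1 and 2 also differed in Xist (1455 and 654 CPM) and in Y transcripts (41.1 and 184 CPM). The part of this sex-linked difference in the gaps was not tested.

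Eda2r and Ephx1 divided the libraries in another way. Eda2r had 76 and 154 counts in control 1 and Msi2 -/- mouse 1, and 17 and 25 counts in control 2 and Msi2 -/- mouse 2. Ephx1 had 325 and 400 counts in the former pair and 98 and 88 counts in the latter. Both genes were picked after their values were seen.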
